A study of Mus musculus with 8 samples.

Results

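The genes described here make, degrade and bind hyaluronan, and were chosen by name: the synthases Has1, Has2 and Has3, the degrading proteins Hyal1, Hyal2, Cemip and Cemip2, and the binding proteins Cd44, Vcan and Hmmr. All 10 had a row among the 21291 gene rows of the expression table, and 9 of them were among the 14974 genes tested. Polyadenylated RNA was sequenced from the paired kidneys of single E14.5 mouse embryos, 4 mutant and 4 control. Mutants were Six2-GFPcre tg/+; Etv4-/-; Etv5fl/fl and controls were Six2-GFPcre tg/+; Etv4+/-; Etv5fl/fl. Both groups therefore carried the Cre transgene, which the Six2 regulatory region drives in nephron progenitors, the cells that give rise to the nephron, and both were homozygous for the floxed Etv5 allele. As labelled they differed at Etv4 alone, and the labels do not restrict the Etv4 null allele to one cell type. Etv4 and Etv5 encode related ETS transcription factors that respond to receptor tyrosine kinase signals such as FGF and GDNF. The series addresses the removal of both factors from the nephron lineage.

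Hyaluronan is a long, unbranched sugar polymer of the extracellular matrix. It is spun out through the plasma membrane by the Has enzymes from UDP-sugars, binds water, and is held in pericellular coats by link-domain proteins such as versican. Hyaluronidases and the Cemip proteins cut it into fragments, and cell-surface receptors such as CD44 bind and internalise it. In embryonic organs it is a major component of loose mesenchymal matrix, and Has2 is the synthase that mouse embryos cannot do without.

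Total estimated counts ran from 35308934 to 38824018 in mutants and from 15515139 to 39548327 in controls, the lowest being control 4, in which Lars2 took 18.4% of all counts, against 0.138% to 0.476% in the other 7 libraries. Etv4 had 294, 281, 219 and 164 normalized counts in mutants 1 to 4, against 2816, 2803, 2816 and 2311 in controls 1 to 4, and Etv5 had 2657, 2377.5, 1957 and 1487 in mutants, against 3438, 4085, 3929 and 3006 in controls. Normalized counts are estimated counts divided by a size factor per library, and each is given in library order 1 to 4. The Y-linked gene Ddx3y was at 0 in every mutant and between 1553 and 1628.5 in the controls, so genotype and embryo sex cannot be told apart for any result below. Markers of kidney compartments were present in every library, with stroma markers (9 of 9 in the table) summing to 141040 to 155660 in mutants and 83364 to 169530 in controls. Col1a1 set the low end, with 33734 in control 4 against 61028 to 110280 in controls 1 to 3; without it the stroma sums ran from 57774 to 73549 in mutants and from 49630 to 59253 in controls. Proximal tubule markers (6 of 6 in the table) summed to 3955 and 9530 in mutants 3 and 4 and 3066.5 in control 4, against 228 to 722 in the other 5 libraries. Mutants 1 and 2 and controls 1 and 2 carry one number in their library names, and mutant 4 and control 4 share another; what these numbers stand for is not stated in the labels. Each library is a separate kidney pair, and the p-values treat the 8 as independent.

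Has2, the main hyaluronan synthase of the embryo, was the only member past the limma threshold, an adjusted p below 0.05. The gene (ENSMUSG00000022367) lies on chromosome 15, 56665627 to 56694539, minus strand, in GRCm38, where Has2os overlaps it on the opposite strand; Has2os was not analysed here. Has2 had 505, 455, 331 and 351 normalized counts in mutants 1 to 4, against 1693, 1123, 1279 and 952 in controls 1 to 4. The highest mutant library lay well below the lowest control library, and the 2 groups did not overlap. Means were 410.3 ± 83.2 in mutants and 1262 ± 317 in controls (SD, n = 4 each), a mutant level 0.325 times that of controls. On the log2(normalized count + 1) scale Has2 fell by 1.61 in mutants (SE 0.20, 95% interval −2.05 to −1.17), with a limma adjusted p = 0.0146 over all genes tested, and it ranked 9 of 14974 by p. In whole kidneys, fewer cells that express a gene and less of its RNA per cell cannot be told apart.

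Across all genes 0.301% were called at an adjusted p below 0.05, with 12 higher and 33 lower in mutants; the authors' deposited table leans the other way, with 383 positive and 261 negative fold changes. Of the 9 hyaluronan genes tested, 1 was called, and it was lower; 0.220% of all genes were called lower and 0.0801% higher. Without depth correction the split of calls over all genes became 62 higher and 18 lower, the median of all genes moved to 0.48 from 0.0087, and Has2 stood at −1.14 with a limma adjusted p = 0.554. The call was also lost without mutant 3 (limma adjusted p = 0.0588) or control 3 (limma adjusted p = 0.0820), with log2 fold changes of −1.51 and −1.59.

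The Has2 difference could be taken within the 2 library-name numbers that hold both groups. Mutants minus controls came to −1.52 among mutants 1 and 2 and controls 1 and 2, where the limma adjusted p = 0.0761, and to −1.44 between mutant 4 and control 4. Without control 4 it was −1.73 with a limma adjusted p = 0.0055. In the authors' deposited table Has2 has a log2 fold change of −1.73 (SE 0.19) and an adjusted p of 2.71e-17.

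**Figure D1:**
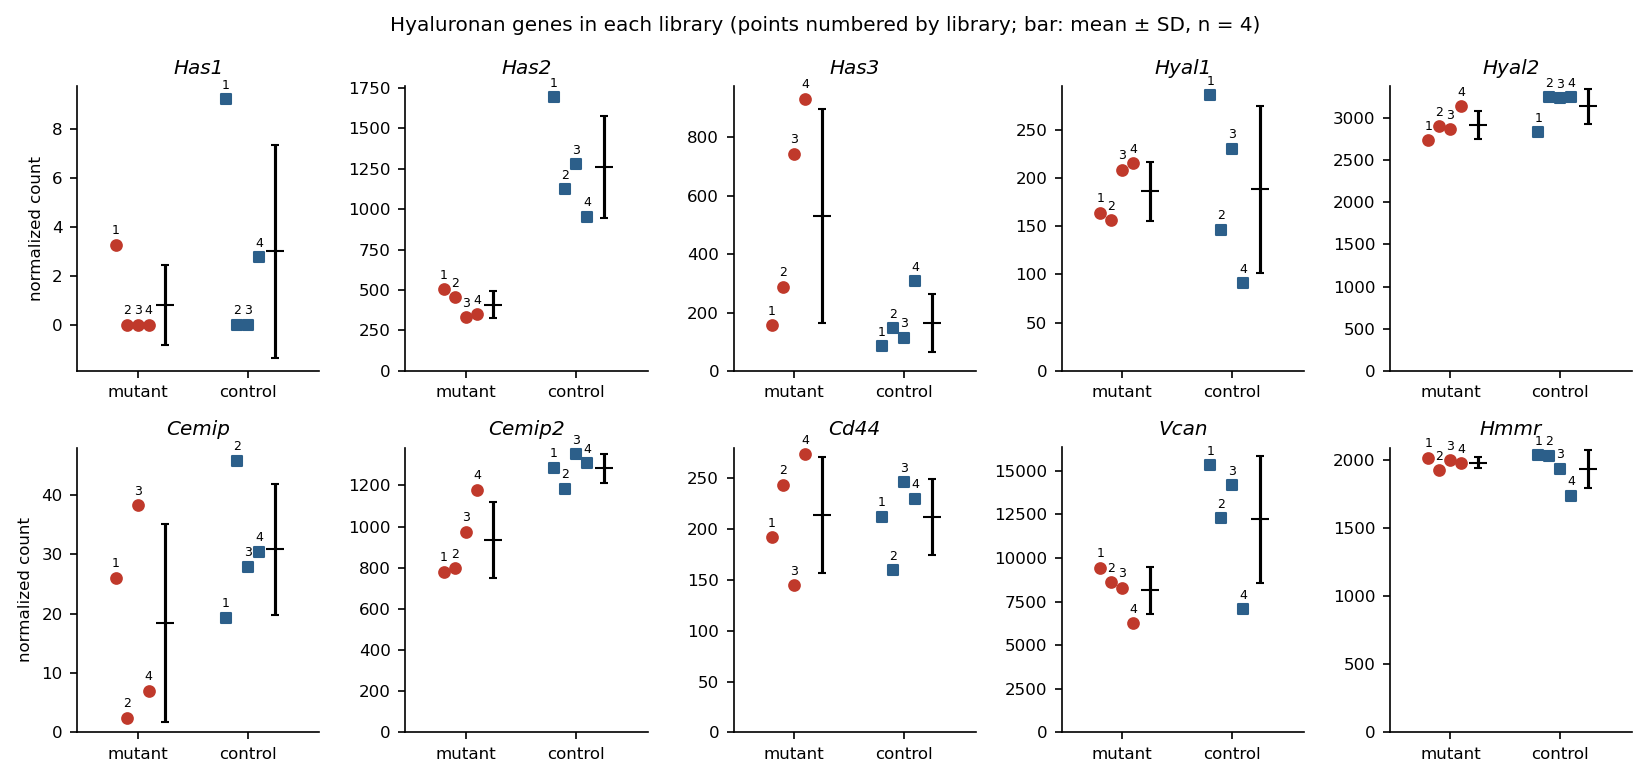
Normalized counts of the 10 hyaluronan genes in each library, mutants as red circles and controls as blue squares, numbered 1 to 4, with the mean ± SD of each group as a black bar (n = 4). Has2 and Cemip2 separate the groups, mutants lower, while Has3 is highest in mutants 3 and 4 and in control 4 among the controls.

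Nephron progenitor markers were low in the same libraries as Has2. The 8 markers, which include Six2, Cited1 and Eya1, were all in the table and none was at 0 in any library; all 8 fold changes were negative, and 2 markers were called lower (Osr1 and Crym). They summed to 10611, 9650 and 5328 in mutants 1 to 3 and 4220 in mutant 4, against 32508, 21339, 28310 and 17048 in controls 1 to 4, so that their groups did not overlap either. Ureteric tip markers (5 of 5 in the table, among them Etv5 itself) also separated the groups, summing to 5580 to 10410 in mutants and 12689 to 18413 in controls, with 5 negative fold changes and 1 marker, Gfra1, called. Early nephron markers (8 of 8) separated them in the opposite direction, at 42590 to 48553 in mutants and 28082 to 37866 in controls, with 0 called by limma. Of their fold changes 7 were positive and 1, that of Fgf8, was negative. Stroma marker sums overlapped between the groups. The part of cell composition in the Has2 result was not tested.

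The 3 genes with the patterns most like that of Has2 over the 8 libraries were sought among 11644, on values scaled to mean 0 and SD 1. All of these had a mean normalized count of at least 100. Y-linked genes, Xist, the hyaluronan members and genes named only by a Gm number, Rik clone or Ensembl identifier were left out. The closest was Osr1, a zinc-finger transcription factor of the intermediate mesoderm and its kidney derivatives, with a root-mean-square gap of 0.14 SD; it averaged 409 ± 82.1 normalized counts in mutants and 1344.5 ± 393 in controls (SD, n = 4 each). Fmr1, an X-linked gene for an RNA-binding protein, followed with a gap of 0.14 SD, and Ttpa, which encodes the alpha-tocopherol transfer protein, with a gap of 0.15 SD. Osr1 fell by 1.69 on the log2 scale (SE 0.21; adjusted p = 0.0152, limma). The log2 fold changes of Fmr1, at −0.37 (SE 0.08), and Ttpa, at −0.58 (SE 0.15), did not pass.

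Has3, the synthase that makes shorter chains in cultured cells, leaned the other way. The gene (ENSMUSG00000031910, chromosome 8, 106870242 to 106884566, plus strand) had 157, 289, 745 and 933 normalized counts in mutants 1 to 4, against 85.0, 146, 114 and 307 in controls 1 to 4. The 2 groups overlapped, since control 4 exceeded mutants 1 and 2. Means were 531 ± 367 in mutants and 163 ± 99.3 in controls (SD, n = 4 each). The log2 fold change of 1.54 (SE 0.57, 95% interval 0.26 to 2.82) missed the threshold (limma adjusted p = 0.318).

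The 3 libraries highest in Has3 were also the 3 highest in proximal tubule markers, whose sums are given above. Control 4 was among them by a small margin, with 307 Has3 counts against 289 in mutant 2. Hnf4a was the largest part of the proximal tubule sums in mutants 3 and 4 and control 4, at 2262, 4877 and 1547. Summed, the 5 loop and distal tubule markers, all in the table, were highest in the same 3 libraries. Unlike in Has3 and the proximal tubule sum, control 4 lay above mutant 3. They came to 794 and 1639 in mutants 3 and 4 and 1279 in control 4, against 56.2 to 188 in the other 5 libraries. Irx1 made up most of these 3 sums, at 619, 1219 and 794. Slc12a3 was instead highest in control 1, at 15.7, against 7.84, 7.04 and 11.1 in mutants 3 and 4 and control 4. Slc12a1 was at 0 in mutant 2 and controls 1 and 3. Umod was at 0 in mutants 1 and 3 and control 2, and Slc12a3 in mutant 1. Among the proximal tubule markers Slc34a1 was at 0 in mutants 1 and 2 and controls 1 and 2. Fbp1 was at 0 in mutant 1 and controls 1 to 3, and Spp2 in controls 1 and 3. Spp2 was also low in mutant 3, at 0.871, below mutants 1 and 2 at 6.525 and 14.7. Mesothelium markers (5 of 5 in the table, none at 0) summed to 971, 979, 2037 and 2759 in mutants 1 to 4, against 835, 1001, 1116 and 1821 in controls 1 to 4, and most of each sum was Krt19, which epithelia also express. The same 3 libraries were also the highest in podocyte, ureteric trunk and smooth muscle markers. In the order mutants 3 and 4 and control 4, podocyte markers summed to 10238, 13535 and 6518, against 3206 to 5623 in the other 5. Ureteric trunk markers summed to 16989, 21192 and 15259, against 9818 to 15112, so that control 4 lay close to mutant 2 at 15112. Smooth muscle markers summed to 3824, 3469 and 3138, against 1457 to 2102. Among mutants 1 and 2 and controls 1 and 2, Has3 differed by 0.93 (limma adjusted p = 0.504), and between mutant 4 and control 4, 1 library each and so without a test, by 1.60. The part of any of these cell types in the Has3 values was not tested.

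In the authors' deposited table Has3 has a log2 fold change of 2.21 (SE 0.67) and an adjusted p of 0.0223. Has3 passed the limma threshold in 1 of 22 other fits, the one without depth correction (log2 fold change 2.01, adjusted p = 0.00682). Has3 overlaps Chtf8 on the opposite strand, and whether the counting used strand is not stated in the labels. Chtf8 had a log2 fold change of 0.15 (SE 0.12), and 7 of the 8 Has3 estimates were whole numbers.

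Has1, the remaining synthase, was close to absent, with 4, 0, 0 and 0 estimated counts in mutants 1 to 4, against 10, 0, 0 and 1 in controls 1 to 4. It failed the filter of 10 normalized counts in 4 libraries and was not compared.

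Setting the synthases on one scale, counts per kilobase of merged exons in GENCODE M21, gives their balance; this measure was picked out after the values were seen and carries no test. Has2 made up 82.8%, 70.3%, 40.1% and 36.2% of the Has2 and Has3 sum per kilobase in mutants 1 to 4, against 96.8%, 92.0%, 94.4% and 82.4% in controls 1 to 4. Mutant 1 thus lay at the level of control 4, and mutants 3 and 4 had more Has3 than Has2 per kilobase. The sum of both ran from 144 to 229 per kilobase in mutants and from 273 to 413 in controls, without overlap. Merged exon length can exceed that of the transcript a cell makes, so the shares depend on it.

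**Figure D2:**
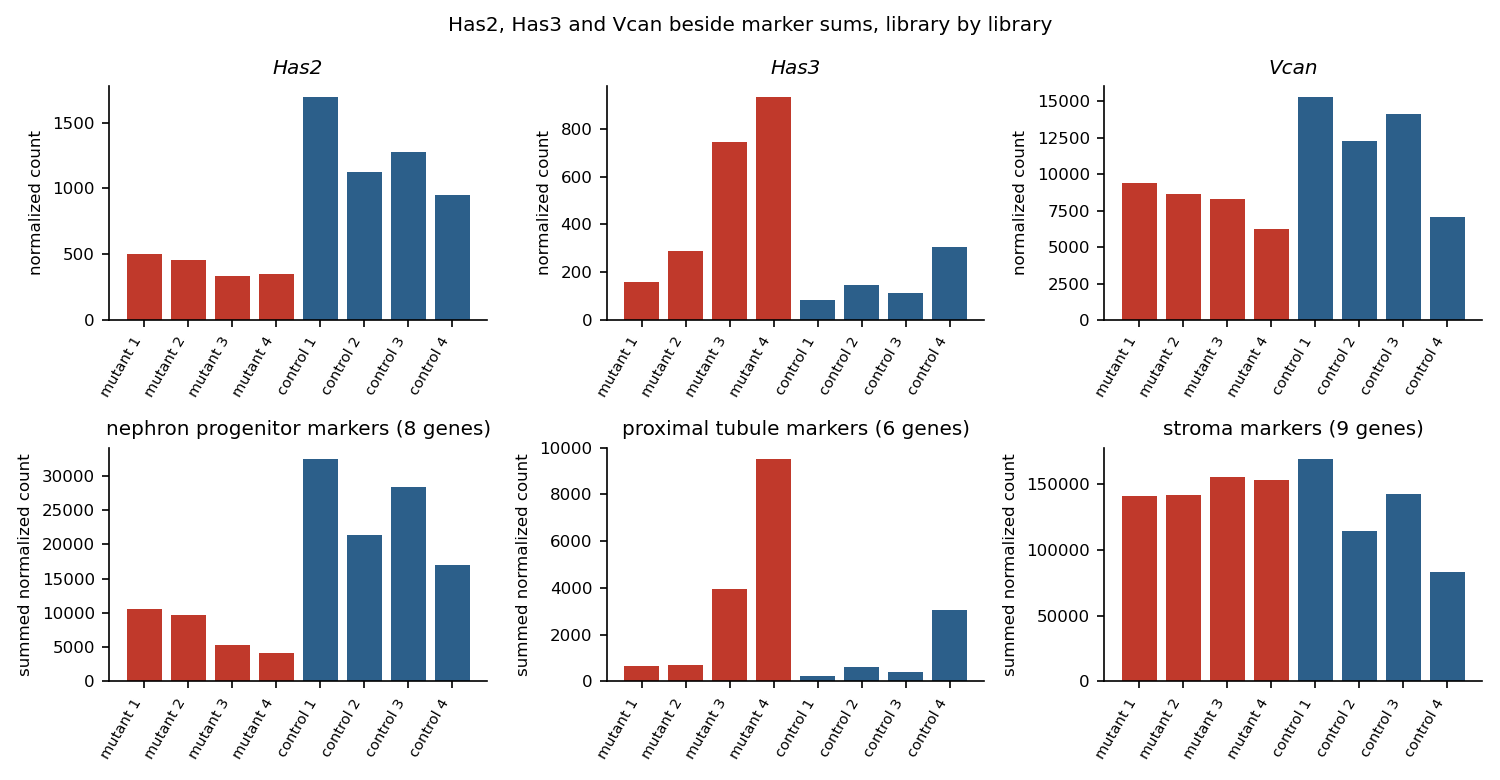
Normalized counts of Has2, Has3 and Vcan (top) and summed normalized counts of nephron progenitor, proximal tubule and stroma markers (bottom) in each library, mutants in red and controls in blue, with axes from 0. Has2 and the progenitor sum are lower in all 4 mutants, and Has3 and the proximal tubule sum are both high in mutants 3 and 4 and, among controls, in control 4.

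Versican, the large chondroitin sulfate proteoglycan that binds hyaluronan through its link domain, was the most abundant binder per kilobase. Vcan (ENSMUSG00000021614, chromosome 13, 89655312 to 89742509, minus strand) had 9425, 8615, 8292 and 6260 normalized counts in mutants 1 to 4, against 15299, 12286, 14155 and 7066 in controls 1 to 4. Every mutant lay below controls 1 to 3, but control 4 lay below 3 of the 4 mutants. Means were 8148 ± 1345.5 in mutants and 12201 ± 3642 in controls (SD, n = 4 each). The log2 fold change of −0.54 (SE 0.23, 95% interval −1.05 to −0.026) missed the threshold (limma adjusted p = 0.389).

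Vcan passed in 3 of 22 other fits. Over all genes these called 178 without control 4, 190 without mutant 4 and control 4, and 748 with library weights. The reported fit called 45. Without control 4, the shallow library, the log2 fold change was −0.78 (SE 0.13) with a limma adjusted p = 0.0313, and without mutant 4 and control 4 it was −0.66 with a limma adjusted p = 0.0112. With library weights and all 8 libraries it was −0.69 with a limma adjusted p = 0.0123. Among mutants 1 and 2 and controls 1 and 2, where control 4 is also absent, it did not pass (limma adjusted p = 0.196). Between mutant 4 and control 4 the Vcan difference was −0.17, against −0.61 among mutants 1 and 2 and controls 1 and 2. In the authors' deposited table Vcan has a log2 fold change of −0.77 (SE 0.13) and an adjusted p of 1.20e-06. GENCODE M21 lists 9 Vcan transcripts, which differ in the chondroitin sulfate regions they carry, and the gene-level values do not separate them.

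Cd44, the main cell-surface hyaluronan receptor, was level in its mean. It had 192, 243, 145 and 273 normalized counts in mutants 1 to 4, against 212, 160, 246 and 230 in controls 1 to 4, with both groups covering nearly the same range. The log2 fold change was −0.013 (SE 0.23, 95% interval −0.52 to 0.50; adjusted p = 0.988, limma), so changes of up to 0.50 upward and 0.52 downward on the log2 scale lie within the interval.

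Promoter windows of Vcan and Cd44 are shown because Vcan passed the test once control 4 was left out and Cd44 did not, and because both hold the PEA3 letters, named after an earlier name of Etv4. The windows run from 250 bases before to 50 bases after the RefSeq start on GRCm38.p6, and capitals mark AGGAAG or its reverse complement CTTCCT. Vcan lies at chr13:89742463-89742762 on the minus strand and Cd44 at chr2:102901616-102901915 on the minus strand.
Vcan: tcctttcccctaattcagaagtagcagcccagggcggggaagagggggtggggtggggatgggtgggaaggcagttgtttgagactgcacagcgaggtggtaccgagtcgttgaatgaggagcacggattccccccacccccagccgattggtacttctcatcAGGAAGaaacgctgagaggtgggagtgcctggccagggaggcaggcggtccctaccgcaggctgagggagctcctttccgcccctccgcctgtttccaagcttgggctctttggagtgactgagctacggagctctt
Cd44: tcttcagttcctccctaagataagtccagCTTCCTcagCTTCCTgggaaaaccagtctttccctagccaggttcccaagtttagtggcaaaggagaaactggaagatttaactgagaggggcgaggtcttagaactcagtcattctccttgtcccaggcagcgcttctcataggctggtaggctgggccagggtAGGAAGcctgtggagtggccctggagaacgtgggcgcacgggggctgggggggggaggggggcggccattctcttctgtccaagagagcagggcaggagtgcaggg
Vcan holds 1 match and Cd44 holds 3. Windows were found for 7 of the 10 members (Has2, Has3 and Cemip2 were not matched), and 3 of the 7 hold AGGAAG on either strand, the other being Hyal2, against 35.4% of all 32851 promoter windows. The ETS consensus letters CCGGAAG, which cannot overlap AGGAAG on the same strand at the shared core, were searched on both strands and occur in the Cemip window alone among the 7, against 8.86% of all windows. These matches describe letters, not binding.

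Hmmr, a microtubule-associated protein of the mitotic spindle that also binds hyaluronan, varied little between libraries. It had 2016, 1922, 1999 and 1974 normalized counts in mutants 1 to 4, against 2033.5, 2031, 1935 and 1737 in controls 1 to 4, and the groups overlapped. The log2 fold change of 0.035 (SE 0.08) has a 95% interval of −0.14 to 0.21 (limma adjusted p = 0.894). Proliferation markers of G2 and M phase, 10 of 10 measured, summed to 49281 to 73977 in mutants and 49987 to 79151 in controls, and limma called 0 of the 10. Hmmr estimates were fractional in all 8 libraries.

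Among the degrading proteins, Cemip2 stood out by its separation. Cemip2 (also known as Tmem2) is a transmembrane protein reported to act as a cell-surface hyaluronidase in mouse. The gene (ENSMUSG00000024754, chromosome 19, 21778342 to 21858360, plus strand) had 781, 799, 975 and 1179 normalized counts in mutants 1 to 4, against 1287, 1184, 1351 and 1309 in controls 1 to 4. Mutant 4 came within a few counts of control 2, but the groups did not overlap. Means were 934 ± 185 in mutants and 1283 ± 71.1 in controls (SD, n = 4 each). The log2 fold change of −0.48 (SE 0.13, 95% interval −0.78 to −0.18) had an unadjusted p of 0.00538 and missed the threshold (limma adjusted p = 0.182).

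Cemip2 differed by −0.64 among mutants 1 and 2 and controls 1 and 2 and by −0.15 between mutant 4 and control 4. It passed in 2 of 22 other fits, both calling more genes than the 45 of the reported fit. With library weights, where 748 genes were called, it stood at −0.59 (limma adjusted p = 0.0120). Without mutant 4 and control 4, where 190 were called, it stood at −0.59 (limma adjusted p = 0.0382). Among the same 11644 genes, the pattern most like that of Cemip2 was that of Cd74, the invariant chain of antigen presentation. Its root-mean-square gap was 0.21 SD, followed by Poglut3 at 0.25 SD and Ankrd54 at 0.26 SD. None of these 3 passed, with limma adjusted p from 0.242 to 0.442.

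Hyal2, a lipid-anchored hyaluronidase that cuts long chains at the cell surface, had 2737, 2901.5, 2865 and 3135 normalized counts in mutants 1 to 4, against 2829, 3246, 3235 and 3246 in controls 1 to 4. The groups overlapped through control 1 and mutants 2, 3 and 4. Its log2 fold change of −0.11 (SE 0.08, 95% interval −0.28 to 0.067) missed the threshold (limma adjusted p = 0.623).

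Hyal1, the lysosomal hyaluronidase, ran from 156 to 215 normalized counts in mutants and from 91.2 to 285 in controls, the lowest being control 4 with 32.9 estimated counts. The log2 fold change was 0.096 (SE 0.33; adjusted p = 0.938, limma). Hyal1 overlaps Naa80 and Hyal3 on the same strand and its estimates were fractional in all 8 libraries, so its values are uncertain. Cemip, a secreted hyaluronan-depolymerising protein, was low, with 26.1, 2.45, 38.3 and 7.03 normalized counts in mutants 1 to 4, against 19.3, 45.8, 28.0 and 30.4 in controls 1 to 4. Its log2 fold change of −1.22 (SE 0.75) had a 95% interval from −2.90 to 0.46.

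Over the 9 tested members the median log2 fold change was −0.11, beside 0.0087 over all genes tested. Groups did not overlap for 2 of the 9, Has2 and Cemip2, beside 8.60% of all genes tested. An unadjusted p below 0.05 was reached by Has2, Has3, Cemip2 and Vcan, 4 of the 9, beside 12.0% of all genes tested.

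**Figure D3:**
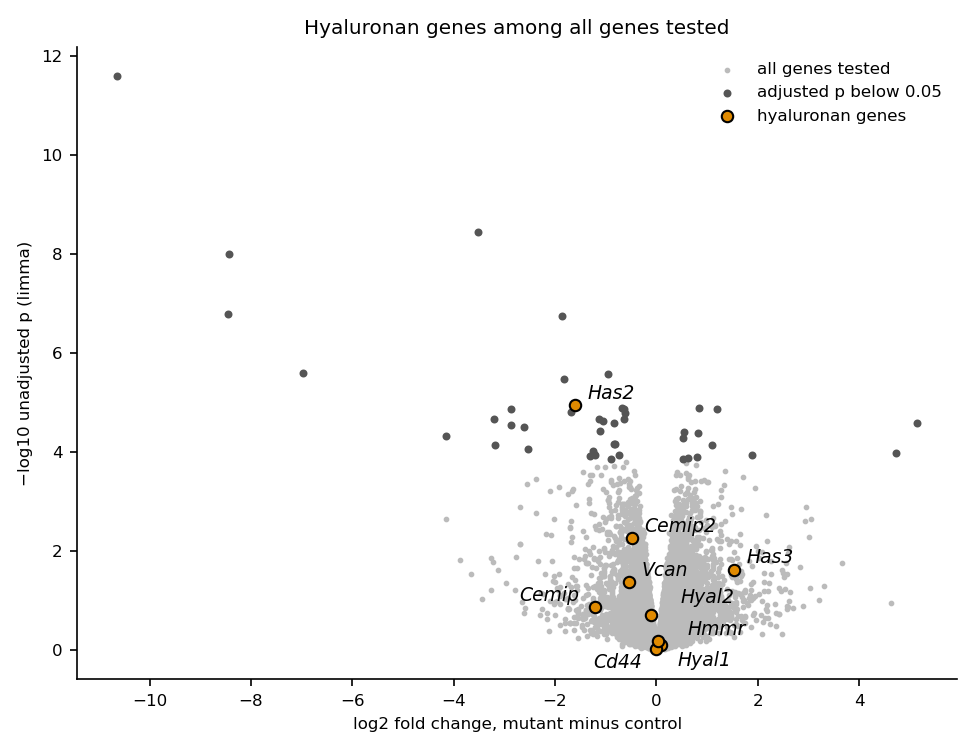
Log2 fold change of mutant minus control (x) against −log10 of the unadjusted limma p (y) for 14974 genes in grey, with genes at an adjusted p below 0.05 in dark grey and the 9 tested hyaluronan genes in orange. Has2 lies among the called genes, Cemip2, Has3 and Vcan below them, and Cd44, Hyal1 and Hmmr near 0 on both axes.

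Per kilobase of merged exons, Hyal2 and Vcan were the highest members, at 884 ± 50.3 and 563 ± 93.0 normalized counts per kilobase in mutants and 953 ± 62.9 and 844 ± 252 in controls (SD, n = 4 each). Their ranges overlapped in controls and did not in mutants. Hmmr followed at 364 ± 7.54 in mutants and 356 ± 25.7 in controls. Has2 was next in controls at 298 ± 74.8 per kilobase, above Cemip2 at 151 ± 8.34. In mutants Has2 at 96.8 ± 19.6, Cemip2 at 110 ± 21.8 and Has3 at 83.2 ± 57.6 lay within each other's spread. Hyal1, at 49.2 ± 7.99 in mutants and 49.9 ± 22.9 in controls, and Cd44, at 31.5 ± 8.39 in mutants and 31.3 ± 5.54 in controls, were lower. In controls Has3 was at 25.5 ± 15.6, its range overlapping that of Cd44, and Cemip stayed at or below 3.74 in all 8 libraries.

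In the wider hyaluronan pathway limma called no gene, while the authors' deposited table holds 3 (Stab1, Itih2 and Adamts1) and voom called 0. Of 7 genes that supply the UDP-sugar precursors, 7 were tested, 5 had positive and 2 negative fold changes, and limma called 0, with 0 at an unadjusted p below 0.05 and a median of 0.063. Gfpt1, which starts the hexosamine pathway, had a log2 fold change of 0.22 (SE 0.12) and Pgm3, a later step of it, one of 0.17 (SE 0.12). Of 8 other degrading enzymes 4 were tested, with a median of 0.013, 0 called by limma and 0 at an unadjusted p below 0.05; Hyal3 stood at 0.77 (SE 0.45) and the lysosomal beta-glucuronidase Gusb at 0.037 (SE 0.06). The 4 enzymes without a row (Hyal4, Hyal5, Hyal6 and Spam1) were not analysed here.

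Other hyaluronan receptors had a median of 0.48 over 7 tested, 5 positive and 2 negative. Limma called 0 of them, with 2 (Stab1 and Stab2) at an unadjusted p below 0.05, beside 12.0% of all genes tested. Both were called with library weights, a fit that called 748 of all 14974 genes, against 45 in the reported fit. The authors' deposited table holds 1, Stab1. Stab1 encodes a scavenger receptor of macrophages and sinusoidal endothelium and was listed here with the hyaluronan receptors. It had 4112, 3972, 4887 and 4202 normalized counts in mutants 1 to 4, against 2349, 3339, 2865 and 1948 in controls 1 to 4. Every mutant exceeded every control, at a log2 fold change of 0.73 (SE 0.15), but the limma adjusted p was 0.1004. Stab2, its endothelial relative, stood at 0.81 (SE 0.33; adjusted p = 0.368, limma). Endothelium markers (6 of 6, none at 0) summed to 18439 to 21092 in mutants and 13143 to 17274 in controls, and macrophage markers (6 of 6, none at 0) to 2240 to 2630 in mutants and 1312 to 2143 in controls. Neither sum overlapped between groups. Taken singly, 3 of the 6 endothelium and 2 of the 6 macrophage markers separated them, beside 8.60% of all genes tested. All 6 endothelium fold changes were positive, as were 5 of the macrophage ones, with Cd68 at −0.0089. Limma called 0 in either list, and the part of these cells in the Stab1 values was not tested. The authors' deposited table gives Stab1 a log2 fold change of 0.59 (SE 0.13) and an adjusted p of 3.15e-04.

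Link proteins and lecticans other than versican had 6 of 8 members tested, 2 positive and 4 negative, with a median of −0.16. Limma called 0, with 1 (Hapln1) at an unadjusted p below 0.05, beside 12.0% of all genes tested. Hapln1 was also among the 748 genes called with library weights, and the authors' deposited table holds none of the list. Hapln1, which locks versican onto hyaluronan, had 763, 726, 797 and 795 normalized counts in mutants 1 to 4, against 575, 687, 506 and 578 in controls 1 to 4. The groups did not overlap, and the log2 fold change of 0.40 (SE 0.11) missed the threshold (limma adjusted p = 0.178). Tnfaip6, which transfers inter-alpha-inhibitor heavy chains to hyaluronan, stood at −0.72 (SE 0.38; adjusted p = 0.489, limma).

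Heavy chains and other binders had 5 of 9 members tested, 2 positive and 3 negative, with a median of −0.051. Limma called 0, with 1 (Itih2) at an unadjusted p below 0.05, beside 12.0% of all genes tested. Itih2 was also among the 748 genes called with library weights, and the authors' deposited table also holds it. Itih2, a heavy chain of inter-alpha-inhibitor, had 52.2, 79.2, 36.6 and 55.4 normalized counts in mutants 1 to 4, against 277, 167, 188 and 102 in controls 1 to 4. All mutants lay below all controls, with a difference of −1.67 on the log2 scale (SE 0.34; limma adjusted p = 0.0853), and in the authors' deposited table it has −1.91 (SE 0.32) and an adjusted p of 5.25e-07. Itih5 stood at −0.26 (SE 0.15).

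Versican-cleaving proteases had a median of 0.37 over 6 tested, 5 positive and 1 negative. Limma called 0, with 1 (Adamts1) at an unadjusted p below 0.05, beside 12.0% of all genes tested, and the authors' deposited table holds it. Adamts1 had 3042, 3213, 5265 and 5742 normalized counts in mutants 1 to 4, against 2665, 2563, 2725 and 2864 in controls 1 to 4. The groups did not overlap, and mutants 3 and 4 were the highest, the same 2 mutants that were high in proximal tubule markers. Control 4, also high in those markers, had 2864, below mutants 1 and 2 at 3042 and 3213, which were low in them. The log2 fold change of Adamts1 was 0.62 (SE 0.20, adjusted p = 0.242, limma), and Adamts5 stood at 0.37 (SE 0.18, adjusted p = 0.462, limma). In the authors' deposited table Adamts1 has a log2 fold change of 0.70 (SE 0.19) and an adjusted p of 0.00818.

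**Figure D4:**
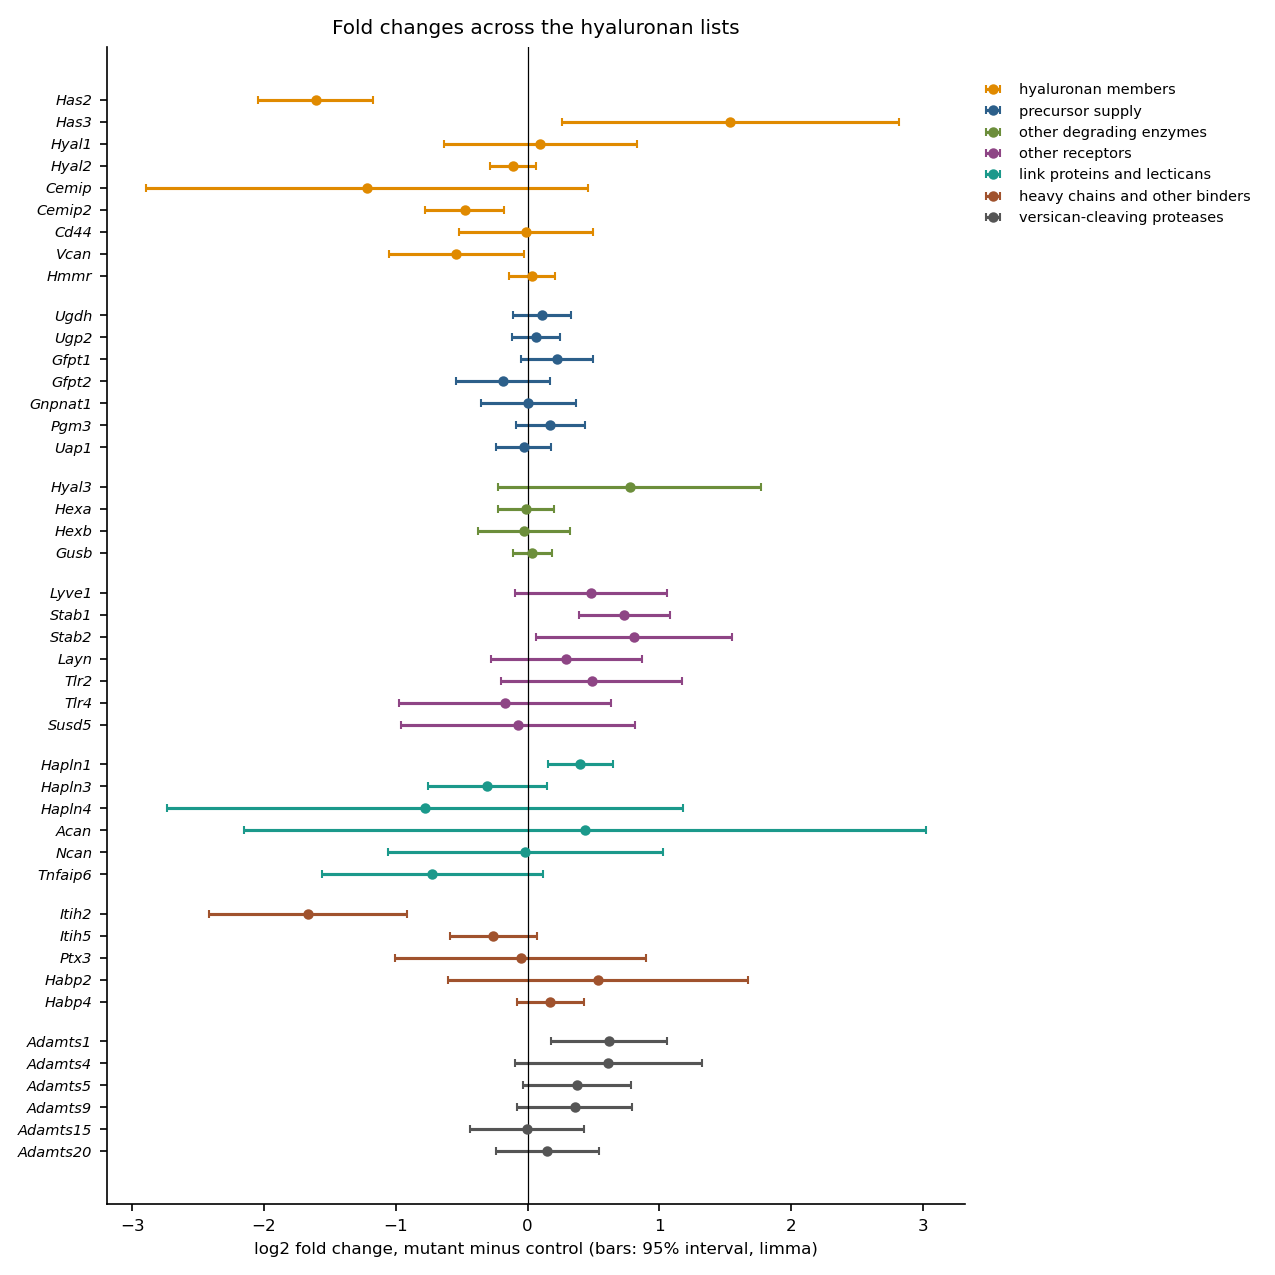
Log2 fold change of mutant minus control with its 95% limma interval for each tested hyaluronan gene, coloured by list. Has2 and Itih2 lie farthest to the left with intervals that exclude 0, at −1.61 and −1.67, and Has3 lies farthest to the right with an interval from 0.26 to 2.82.

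**Figure D5:**
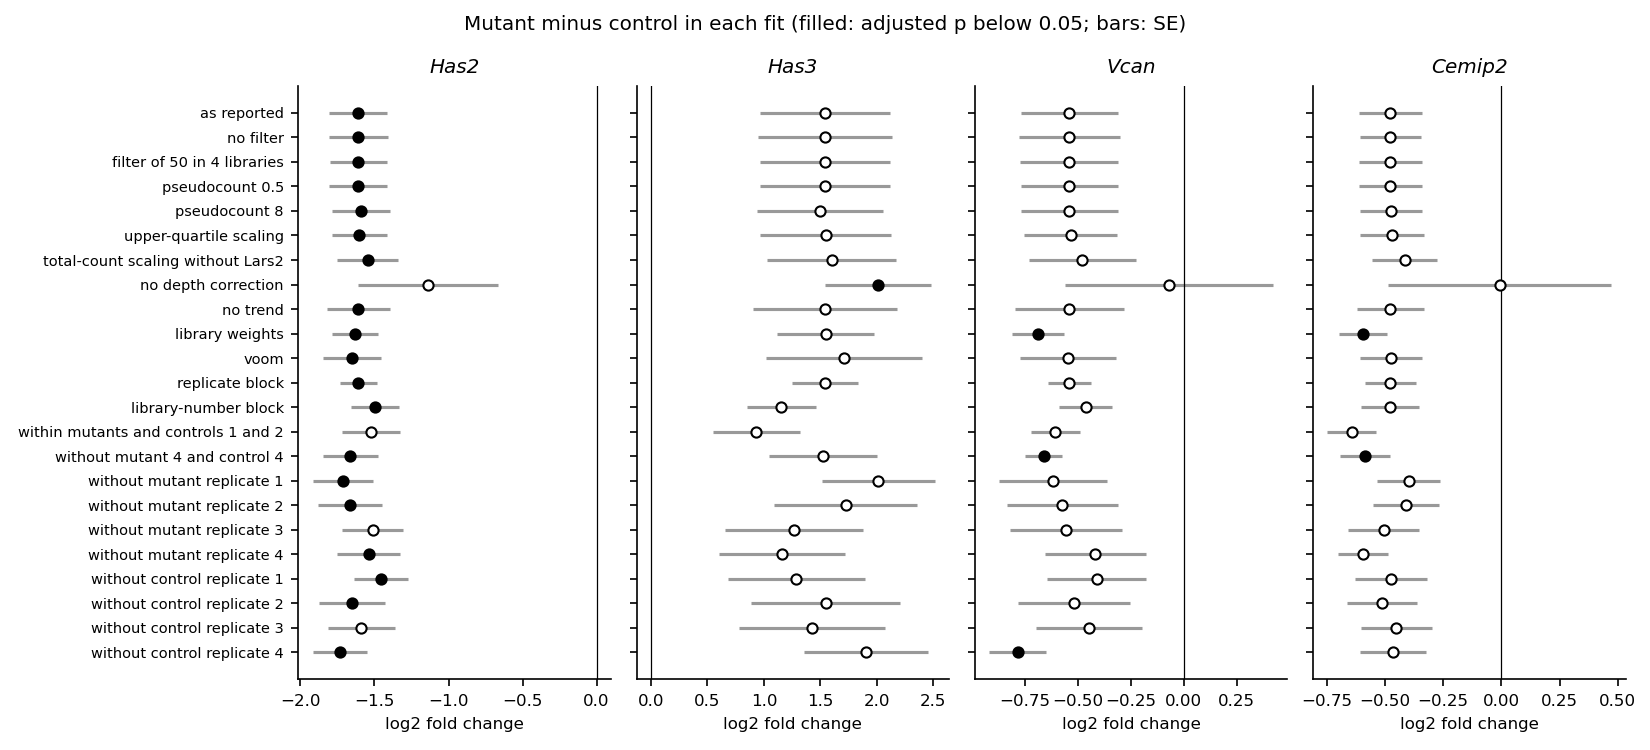
Log2 fold change of mutant minus control with its SE for Has2, Has3, Vcan and Cemip2 in the reported fit and 22 other fits, filled where the adjusted p was below 0.05. Has2 is filled in 18 of the 22 other fits, Vcan in 3, Cemip2 in 2 and Has3 in 1, and none of the 4 changes side.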

How the data were processed

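Kidney pairs were snap frozen and polyA-selected RNA was read from both ends, per the labels' protocols. Tools named in the submitters' processing notes are kallisto 0.46.0, fastp 0.23.2 and DESeq2 1.40.2, and the build is mm10; what each was used for is not stated there. The authors' deposited log2 values, named as normalized, behave as log2(estimated count + 1) with no depth correction: 76.1% of back-transformed values were whole within 0.001, and library totals differed. The authors' second deposited table holds 644 genes with a log2 fold change, its standard error and test statistic (each a score), p-values and, as a signal, the mean normalized count, per the file headers; the largest adjusted p there is 0.0498.

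The log2 values were turned back into estimated counts and scaled with median-of-ratios size factors (0.361 in control 4, otherwise 1.07 to 1.27). A gene was tested if 4 or more libraries had 10 or more normalized counts. The test was that of limma 3.58.1 in R 4.3.3 (lmFit and trended eBayes) on log2(normalized count + 1), a scale that understates changes of low genes; genotype was the only term, and tests were two-sided, Benjamini-Hochberg adjusted over 14974 genes, at a threshold of 0.05. Mutant and control groups and replicate numbers come from the titles. Alternatives covered filters, pseudocount, scaling, trend, library weights, voom, blocks, subsets and each library left out, keeping the size factors and genes tested where libraries were left out. The members and lists were chosen with earlier results of these data known. Named genes are the 10 members, the 2 genes of each other list with the smallest p, and the 3 genes most like the 2 members with the smallest p. No 2 libraries were identical. The steps were tested on simulated data with 4 mutant and 4 control libraries. They recovered 67.7% of changes of 1 on the log2 scale and 83% of changes of 2, and 3.85% of calls fell on unchanged genes. The simulation drew each gene separately, so these rates may not carry over to libraries in which genes vary together. Positions and exon lengths come from GENCODE M21 (GRCm38, the assembly of mm10) and promoter windows from RefSeq. Python 3.11.15 and matplotlib 3.10.9 drew the figures.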

Additional observations from a re-analysis of the deposited data

Results flagged for a closer look

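Hyal2 in control 1, at 2829 normalized counts, stood apart from controls 2 to 4, which lay between 3235 and 3246. Has1 in mutant 1, at 3.26 normalized counts (4 estimated counts), stood apart from the other 3 mutants, which were all at 0; with 3 values at 0, any count above 0 would stand apart, and Has1 was not compared. Each is a sample whose gap to its nearest neighbour exceeds the share of the group's range that Dixon's 95% limit allows; 20 groups of 4 were examined, and chance alone gives about 5% of groups.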

How the results depend on the processing

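The number of genes past the threshold depended on the fit. Genes higher in mutants numbered 12 as reported, and 62 without depth correction, 7 without the trend, 333 with library weights, 20 with voom, 3 within libraries 1 and 2 of both groups and 60 without mutant 4 and control 4; leaving out single libraries gave 0 to 60. Genes lower in mutants numbered 33 as reported, and in the same alternatives 18, 21, 415, 49, 13 and 130, with 8 to 118 when single libraries were left out. Hyaluronan genes past the threshold numbered 1 as reported, 3 with library weights, 0 within libraries 1 and 2 of both groups and 3 without mutant 4 and control 4, and 0 to 2 when single libraries were left out. Has2 kept its direction in all 22 other fits (−1.73 to −1.14) and passed in 18. Signs turned only for members near 0: Hyal1 to −0.30 with library weights, −0.062 with voom, −0.35 within libraries 1 and 2 of both groups and −0.28 without mutant 4 and control 4 (−0.21 to 0.34 with single libraries left out); Hyal2 to 0.36 without depth correction; Cd44 to 0.048 with total-count scaling, 0.45 without depth correction, 0.027 with voom, 0.24 with the library-number block and 0.23 within libraries 1 and 2 of both groups (−0.15 to 0.16 with single libraries left out); Hmmr to −0.046 within libraries 1 and 2 of both groups and −0.015 without mutant 4 and control 4 (−0.016 to 0.060 with single libraries left out). The cause of these shifts was not tested. Control 4, with 15515139 counts, limits precision most, and its Has1, Cemip and Hyal1 values rest on 1, 11 and 32.9 estimated counts.

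With the title number as a replicate block, 45 genes were higher and 88 lower, and Has2 had a limma adjusted p = 0.00389. Deviations from the group means correlated across genes at 0.266, 0.0983, −0.126 and 0.348 for numbers 1 to 4, so the numbers were not taken to pair the libraries; mutants 1 and 4 correlated best with their own number and mutants 2 and 3 did not.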
